A study of Mus musculus with 8 samples.

Results

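The measurements are the mRNA levels of integrin subunits in immortalized mouse embryonic fibroblasts (MEFs). The rule named 10 subunits, and 8 of them have a row among the 12528 genes of the expression table: Itga5, Itgav, Itgb3, Itgb5, Itgb1, Itga1, Itga3 and Itga6. Itga2 and Itga4 were not analysed here. MEFs were isolated from wild-type (WT) mice and from littermates that carry a knockout of Cav1 (Cav1KO), the gene of caveolin-1, the coat protein of caveolae. Both genotypes were grown at low confluence for 24 h on polyacrylamide gels coated with fibronectin, either stiff (55 kPa) or soft (0.2 kPa), with 2 libraries for each genotype and substrate, 8 in all. A group is named by genotype and substrate (WT stiff, for example). The number of lines per genotype is not given in the sources used here, so genotype and cell line cannot be told apart. The libraries of a group are not stated to come from separate cultures, and p-values then measure only the spread between these libraries, which may be technical.

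Integrins are cell surface receptors made of an alpha and a beta subunit, and the pairing decides which matrix protein is held. Itga5 encodes the alpha subunit of the classical fibronectin receptor, which pairs with the product of Itgb1. Itgav encodes the alpha subunit that pairs with the products of Itgb1, Itgb3 or Itgb5 and binds the RGD motif of fibronectin and vitronectin, whereas Itga4 encodes a receptor subunit for fibronectin and VCAM1. Itga1 and Itga2 encode collagen receptor subunits, and Itga3 and Itga6 laminin receptor subunits, all of which pair with the Itgb1 product. Fibroblasts use these receptors to couple the matrix to actin through talin and kindlin, and are known to sense stiffness through them. The ligand on the gels was the one held by the Itga5 and Itgav receptors.

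The recovered read totals ranged from 17089836 to 19944952 per library. Values are CPM (reads of a gene relative to the size of its library) scaled by the trimmed mean of M values (TMM), and 3 reads equalled 0.151 to 0.181 CPM. Cav1, the targeted gene, ranged from 949.8 to 1157 CPM across the 4 libraries of WT cells, and from 0.0523 to 0.411 CPM (1 to 8 reads) across those of Cav1KO cells. Of 11 fibroblast markers, 8 were listed and all 8 had a mean over 5 CPM, while Thy1, Fap and Lum had no row. No epithelial (of 8) or endothelial (of 6) marker was listed. Of 7 macrophage or leukocyte markers 2 were listed, with a summed level of 0.753 to 6.80 CPM. Of 7 muscle markers 3 were listed. These summed levels moved with the groups: in WT cells the fibroblast sum was 7905 to 7939 CPM on stiff and 10300 to 10464 on soft gels, and in Cav1KO cells 3874 to 4635 and 10436 to 10603. The muscle sum was 1125 to 1267, 757 to 874, 401 to 420 and 572 to 595 CPM in the same order, and the macrophage sum 0.753 to 0.855, 2.63 to 2.96, 2.06 to 2.25 and 5.66 to 6.80 CPM. Of the listed fibroblast markers, only Col1a1 ran against the sum in WT cells, at 2612 and 2515 CPM on stiff and 2035 and 2273 on soft gels. The muscle sum was mostly Acta2. Tagln was at 67.5 to 166.7 CPM in WT and 1.15 to 2.90 CPM in Cav1KO libraries, and in Cav1KO cells it was higher on stiff, against the sum. The part of these marker shifts in the results was not tested. In such bulk libraries, fewer cells of a type and less RNA per cell cannot be told apart.

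The sequences just before the transcription starts are shown for Itgb1, Itga5 and Itgb5, the genes of the shared beta subunit, of the fibronectin-binding alpha subunit and of a beta partner of Itgav, since their levels differed between the genotypes in opposite directions. They are the 250 bases before the start from RefSeq on GRCm38.p6, written along the gene's strand, and capitals mark each motif match, which on the opposite strand reads as the reverse complement. The motifs searched, on both strands, were the TEAD core GGAATG, AP-1 TGANTCA, SP1/KLF GGGCGG and the CArG box. No matches overlapped.
Itgb1, chr8:128685404-128685653 (+): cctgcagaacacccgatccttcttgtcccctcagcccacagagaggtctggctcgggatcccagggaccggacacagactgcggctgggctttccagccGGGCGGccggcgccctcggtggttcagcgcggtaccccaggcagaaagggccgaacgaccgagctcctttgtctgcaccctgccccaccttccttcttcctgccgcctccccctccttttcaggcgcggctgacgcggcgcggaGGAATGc
Itga5, chr15:103366792-103367041 (-): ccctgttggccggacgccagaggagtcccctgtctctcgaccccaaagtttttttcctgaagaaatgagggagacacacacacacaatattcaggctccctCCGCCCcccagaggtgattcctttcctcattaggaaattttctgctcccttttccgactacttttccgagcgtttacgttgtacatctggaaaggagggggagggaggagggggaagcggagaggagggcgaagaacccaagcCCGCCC
Itgb5, chr16:33829415-33829664 (+): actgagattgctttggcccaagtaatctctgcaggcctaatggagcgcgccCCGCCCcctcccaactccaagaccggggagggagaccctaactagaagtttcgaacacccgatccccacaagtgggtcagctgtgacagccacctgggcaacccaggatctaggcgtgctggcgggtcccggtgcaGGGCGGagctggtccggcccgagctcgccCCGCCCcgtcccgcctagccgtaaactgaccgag
The Itgb1 window held the TEAD core with its first base at -7 and an SP1/KLF match at -151. The Itga5 window held SP1/KLF matches at -149 and -6, both read on the opposite strand. The Itgb5 window held them at -199, -63 and -34, and the Itgav window held none of the motifs. Among all 32851 promoters of the same length, 12.6% held the TEAD core, 32.7% SP1/KLF, 6.75% AP-1 and 1.47% a CArG box, so these matches describe the letters of the windows and nothing more. The table held promoters for 8 of the 10 subunits, and Itgb3 and Itga6 were without an entry.

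Fold changes below are on the scale of log2(CPM + 1), where changes of scarce genes come out too small, and were tested with limma in 1 fit of all 8 libraries with Benjamini-Hochberg adjustment over 12494 genes. An adjusted p under 0.05 is called a change. The background of such calls was high: 48.4% of all genes passed for stiff against soft in WT cells, 56.1% in Cav1KO cells, 51.7% for Cav1KO against WT on the stiff substrate and 54.0% on the soft substrate, and 10.5% for the difference between the stiffness effects of the genotypes. Against this, 4 of the 8 subunits changed with stiffness in WT cells, 2 higher and 2 lower on stiff, where 22.1% of all genes were higher and 26.3% lower. In Cav1KO cells 4 were lower on stiff and none higher, where 28.2% of all genes were lower and 27.9% higher. With genotype, 1 was higher and 6 lower in Cav1KO on the stiff substrate (all genes 25.0% higher and 26.6% lower), and 2 higher and 4 lower on the soft substrate (all genes 24.1% and 29.9%). The difference between the stiffness effects was past the threshold for 2 subunits, both with a higher effect in WT cells, as for 4.47% of all genes (6.0% were lower). Groups without overlap were common too: the libraries of 75.3% of all genes did not overlap between stiff and soft in WT cells, 78.5% in Cav1KO cells, and between the genotypes 72.7% on stiff and 81.1% on soft. The stiffness and genotype comparisons share libraries. The share of all genes that separate the 4 WT from the 4 Cav1KO libraries was not counted, nor that of ratios between genes. Such separations are therefore given below without a background.

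**Figure D1:**
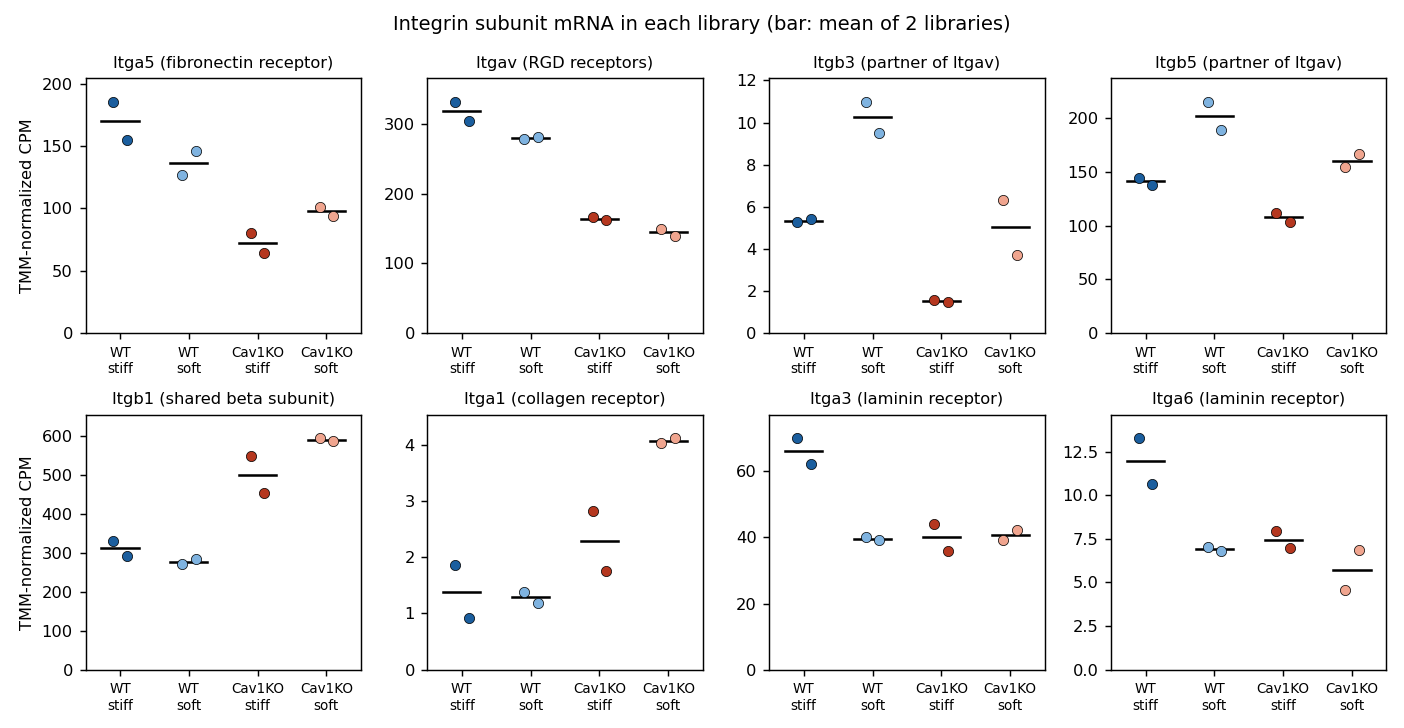
TMM-normalized CPM (y axis, starting at 0, with a scale of its own in each panel) of the 8 integrin subunits in the 2 libraries (points) of each group (x axis), with bars at the group means. Itga5 and Itgav were lower and Itgb1 higher in all 4 Cav1KO libraries than in any WT library, and Itgb5 was higher on soft than on stiff in both genotypes.

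The fibronectin and RGD receptor subunits were lower in Cav1KO cells on both substrates. All 4 listed subunits of this group (Itga5, Itgav, Itgb3 and Itgb5) fell with the deletion on stiff gels (median on the log2 scale -1.09, beside -0.03 for all genes tested), and all 4 fell on soft gels (median -0.71, beside -0.03). Of all genes, 26.6% were called lower in Cav1KO cells on stiff and 29.9% on soft gels. With stiffness the group did not move together. Itgb3 and Itgb5 were lower on the stiff substrate in both genotypes, Itga5 was lower on stiff in Cav1KO cells, and Itgav passed no stiffness test.

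Itga5 lies at chr15:103344286-103366763 on the minus strand (GRCm38). It measured 185.5 and 155.1 CPM on stiff and 126.8 and 146.3 on soft gels in WT cells, and 79.9 and 63.8 on stiff and 101.1 and 93.9 on soft gels in Cav1KO cells. The 4 WT libraries all lay above the 4 Cav1KO libraries, and the substrates were ordered in opposite directions in the genotypes without overlap. On the stiff substrate Itga5 fell by 1.24 on the log2 scale in Cav1KO cells (SE 0.13, limma adjusted p = 8.88e-05), a fitted level 0.424 times that of WT. On the soft substrate it fell by 0.48 (SE 0.13, limma adjusted p = 0.0135). The stiff-minus-soft difference was 0.31 in WT cells (SE 0.13, limma adjusted p = 0.0756), which did not pass, and -0.44 in Cav1KO cells (SE 0.13, limma adjusted p = 0.0185), which did. The difference between these effects was itself tested and was 0.76 (SE 0.18, 95% interval 0.34 to 1.18, limma adjusted p = 0.0414). That call held with edgeR and DESeq2 on the recovered reads but was lost without the mean-variance trend (adjusted p = 0.0697) and in 6 of 8 fits that left out a library: without WT stiff 1 it was 0.63, without WT soft 1 0.65, without WT soft 2 0.86, without Cav1KO stiff 2 0.60, without Cav1KO soft 1 0.70 and without Cav1KO soft 2 0.81 (limma adjusted p from 0.0661 to 0.158). Single libraries also decided other Itga5 calls: the Cav1KO stiffness effect was -0.28 without Cav1KO stiff 2, -0.39 without Cav1KO soft 1 and -0.50 without Cav1KO soft 2, the soft-substrate genotype effect was -0.38 without WT soft 2 and -0.43 without Cav1KO soft 2, and none of these passed, whereas the WT stiffness effect passed without WT stiff 2 (0.44), Cav1KO stiff 1 (0.31) or Cav1KO stiff 2 (0.31), with median centring (0.36) and with DESeq2 (0.32).

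Itgav lies at chr2:83724397-83806916 on the plus strand. It measured 331.9 and 304.4 CPM on stiff and 277.9 and 281.4 on soft gels in WT cells, and 165.7 and 161.7 on stiff and 148.8 and 139.5 on soft gels in Cav1KO cells. Every WT library was above every Cav1KO library. The deletion went with a fall of 0.95 on the log2 scale on the stiff substrate (SE 0.07, limma adjusted p = 1.21e-05) and again of 0.95 on the soft substrate (SE 0.07, limma adjusted p = 1.19e-05), a fitted level 0.517 times that of WT on each. The stiff-minus-soft difference was 0.18 in each genotype (SE 0.07), and did not pass in WT (limma adjusted p = 0.0622) or Cav1KO cells (limma adjusted p = 0.0565). The difference between these effects was 0.00, with a 95% interval from -0.23 to 0.23. Centring each library on its median brought both stiffness differences past the threshold, at 0.23 in WT (adjusted p = 0.0322) and 0.27 in Cav1KO cells (adjusted p = 0.0127).

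Itgb3, at chr11:104608000-104670476 on the plus strand, encodes the beta subunit of the vitronectin receptor and was the scarcest of this group. It measured 5.27 and 5.42 CPM on stiff (105 and 95 reads) and 11.0 and 9.51 on soft gels in WT cells, and 1.59 and 1.48 on stiff (27 reads in each) and 6.33 and 3.70 on soft gels in Cav1KO cells. The lowest library on the soft substrate was above the highest on the stiff substrate within each genotype, and the WT libraries were above those of Cav1KO on the same substrate. The stiff-minus-soft difference of Itgb3 was -0.82 in WT cells (SE 0.20, limma adjusted p = 0.0104) and -1.21 in Cav1KO cells (SE 0.20, limma adjusted p = 0.0012). In Cav1KO cells it was at -1.32 on the stiff (SE 0.20, limma adjusted p = 0.000809) and -0.94 on the soft substrate (SE 0.20, limma adjusted p = 0.00477) relative to WT. The difference between the stiffness effects was 0.39 (95% interval -0.27 to 1.05). With a pseudocount of 5 the Cav1KO stiffness effect shrank to -0.60 and the genotype effects to -0.66 on stiff and -0.62 on soft, and without Cav1KO soft 2 the genotype effect on soft was -0.62, all still past the threshold. The WT stiffness effect was lost without WT stiff 1 (-0.81, limma adjusted p = 0.0501) or WT soft 1 (-0.73, limma adjusted p = 0.0746).

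Itgb5 lies at chr16:33829665-33949338 on the plus strand and encodes a further beta partner of the Itgav product. It measured 144.3 and 138.2 CPM on stiff and 215.6 and 189.3 on soft gels in WT cells, and 111.9 and 103.5 on stiff and 154.7 and 166.4 on soft gels in Cav1KO cells. Both soft groups were above their stiff groups, and Cav1KO soft was above WT stiff. The stiff-minus-soft difference was -0.51 in WT cells (SE 0.09, limma adjusted p = 0.00154) and -0.57 in Cav1KO cells (SE 0.09, limma adjusted p = 0.000661), and these effects differed by 0.06 with a 95% interval from -0.22 to 0.34. The genotype effect was -0.39 on the stiff (SE 0.09, limma adjusted p = 0.00542) and -0.33 on the soft substrate (SE 0.09, limma adjusted p = 0.0112). The last call was lost without WT soft 1 (-0.24, limma adjusted p = 0.0796) or Cav1KO soft 1 (-0.28, limma adjusted p = 0.0936). Of the 60 nt windows of the gene's transcripts, 6.94% also occur in other genes, most often Gm38317. For Itgav, Itga6 and Itga1 the shares that occur in another gene were 5.30%, 4.96% and 3.07%. The other 4 listed subunits shared no window.

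The shared beta subunit moved in the other direction. Itgb1 lies at chr8:128685654-128733200 on the plus strand. It measured 330.5 and 292.7 CPM on stiff and 271.3 and 284.8 on soft gels in WT cells, and 549.1 and 453.6 on stiff and 594.8 and 586.9 on soft gels in Cav1KO cells, so every Cav1KO library was above every WT library. Itgb1 rose by 0.68 on the log2 scale in Cav1KO cells on the stiff substrate (1.60-fold, SE 0.10, limma adjusted p = 0.000657) and by 1.09 on the soft substrate (2.12-fold, SE 0.10, limma adjusted p = 4.08e-05). Its stiffness effect was 0.16 in WT cells (SE 0.10, limma adjusted p = 0.220) and -0.24 in Cav1KO cells (SE 0.10, limma adjusted p = 0.0699), and the difference between them was 0.40 (SE 0.14, limma adjusted p = 0.0913). The Cav1KO stiff libraries were further apart than those of the other groups, and without Cav1KO stiff 1 the Cav1KO effect was -0.38 (limma adjusted p = 0.00938) and the difference between the effects 0.54 (limma adjusted p = 0.0179), both then past the threshold.

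The collagen receptor subunit Itga1, at chr13:114953096-115101964 on the minus strand, was the scarcest of the 8 subunits per length in all groups. It measured 1.86 and 0.912 CPM on stiff (37 and 16 reads) and 1.39 and 1.18 on soft gels (23 and 22) in WT cells, and 2.82 and 1.75 on stiff (48 and 32) and 4.03 and 4.11 on soft gels (77 and 80) in Cav1KO cells. Only the Cav1KO soft libraries stood apart from all the others. Itga1 rose in Cav1KO cells on the soft substrate by 1.15 (SE 0.23, limma adjusted p = 0.00281), which was 0.53 with a pseudocount of 5 and remained past the threshold. On the stiff substrate the groups overlapped (0.47, SE 0.23, limma adjusted p = 0.114), although the difference passed without WT stiff 1 (0.76) or Cav1KO stiff 2 (0.71). Its stiffness effect in Cav1KO cells was -0.64 (SE 0.23, limma adjusted p = 0.0390). This call was lost with edgeR (-0.83, adjusted p = 0.0669), with DESeq2 (-0.84, adjusted p = 0.155), with a pseudocount of 0.5 (-0.74), with median centring (-0.56) and without WT soft 1 (-0.64), WT soft 2 (-0.64), Cav1KO stiff 2 (-0.41), Cav1KO soft 1 (-0.66) or Cav1KO soft 2 (-0.63), and was -0.32 with a pseudocount of 5. In WT cells the stiffness difference was 0.03 (95% interval -0.49 to 0.55), and the difference between the effects was 0.68 (95% interval -0.06 to 1.41).

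Both laminin receptor subunits were higher on the stiff substrate in WT cells, and both were lower in Cav1KO than in WT cells on the stiff substrate. Of all genes, 22.1% were called higher in the first comparison and 26.6% lower in the second. Itga3 lies at chr11:95044474-95076801 on the minus strand. It measured 70.0 and 62.1 CPM on stiff and 40.1 and 39.2 on soft gels in WT cells, and 44.2 and 35.8 on stiff and 39.3 and 42.1 on soft gels in Cav1KO cells. The WT stiff libraries stood above the other 6, which overlapped each other. The stiff-minus-soft difference was 0.72 in WT cells (1.65-fold, SE 0.11, limma adjusted p = 0.00112) and -0.03 in Cav1KO cells (95% interval -0.29 to 0.23). The test of the difference between the effects gave 0.75 (SE 0.16, 95% interval 0.38 to 1.12, limma adjusted p = 0.0310). On the stiff substrate Itga3 was at -0.71 in Cav1KO relative to WT cells (SE 0.11, limma adjusted p = 0.000938), and on the soft substrate at 0.04 (95% interval -0.22 to 0.30). The difference between the effects held with edgeR and DESeq2, but was lost without the mean-variance trend (adjusted p = 0.0517) and without WT stiff 1 (0.67), WT soft 1 (0.77), WT soft 2 (0.74), Cav1KO stiff 2 (0.60), Cav1KO soft 1 (0.80) or Cav1KO soft 2 (0.70), with limma adjusted p from 0.0605 to 0.117.

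Itga6, at chr2:71745616-71858416 on the plus strand, measured 13.3 and 10.7 CPM on stiff and 7.01 and 6.82 on soft gels in WT cells, and 7.94 and 6.96 on stiff and 4.55 and 6.84 on soft gels in Cav1KO cells. As for Itga3, the WT stiff libraries were the highest. The stiff-minus-soft difference was 0.70 in WT cells (1.63-fold, SE 0.19, limma adjusted p = 0.0139) and 0.36 in Cav1KO cells (SE 0.19, limma adjusted p = 0.137), and the difference between the effects was 0.35 (95% interval -0.25 to 0.95). In Cav1KO cells Itga6 was at -0.61 on the stiff (SE 0.19, limma adjusted p = 0.0236) and -0.26 on the soft substrate (SE 0.19, limma adjusted p = 0.261) relative to WT. The WT stiffness call was lost without WT stiff 1 (0.56), WT soft 1 (0.72) or WT soft 2 (0.69), and the genotype call on stiff without WT stiff 1 (-0.47) or Cav1KO stiff 2 (-0.53). Without Cav1KO soft 2, the Cav1KO stiffness difference passed (0.60, limma adjusted p = 0.0387).

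**Figure D2:**
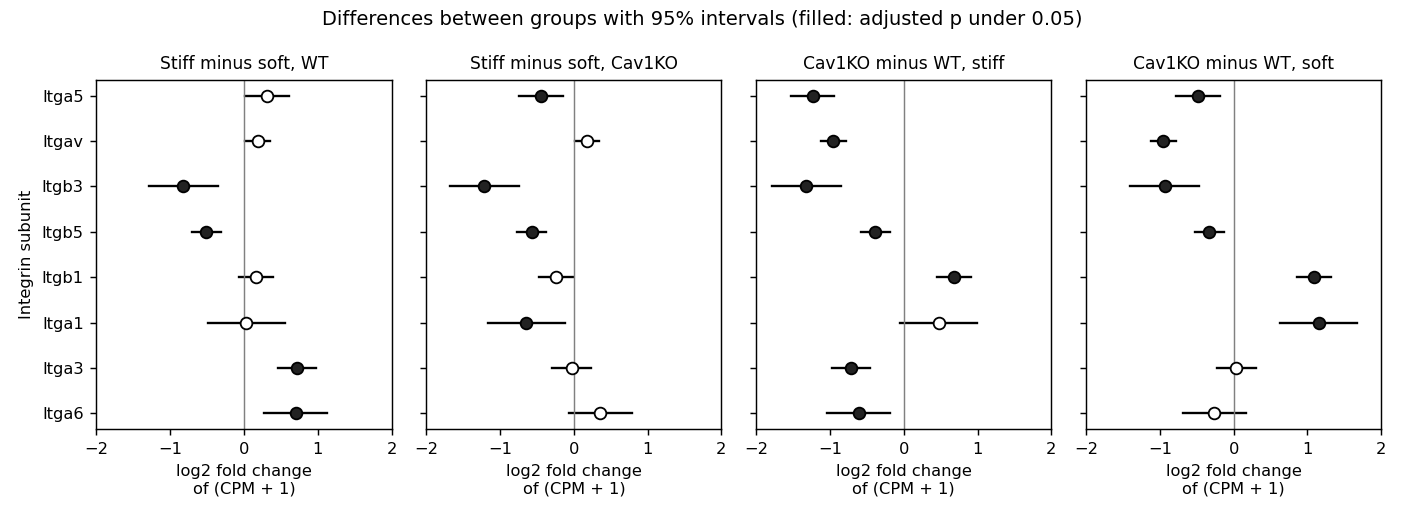
log2 fold changes of (CPM + 1) (x axis) of the 8 subunits (y axis) in the stiffness and genotype comparisons, 1 panel each, with 95% intervals and filled points where the limma adjusted p is under 0.05. The 4 fibronectin and RGD receptor subunits lie left of 0 in both genotype panels, Itgb1 lies right of 0 in both, and Itga3 and Itga6 lie right of 0 in the WT stiffness panel.

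For levels between genes, CPM were divided by the length of the union of the gene's exons in kb. Itgb1 was the most abundant subunit in every group, at 76.4 ± 6.56 CPM per kb (SD, n = 2) on stiff and 68.1 ± 2.34 on soft gels in WT cells, and 122.8 ± 16.5 on stiff and 144.8 ± 1.36 on soft gels in Cav1KO cells. Itgb5 came next in each group, at 39.8 ± 1.203, 57.0 ± 5.24, 30.3 ± 1.68 and 45.2 ± 2.32 CPM per kb in the same order. Itga5 (34.5, 27.7, 14.6 and 19.8 CPM per kb) and Itgav (29.6, 26.0, 15.2 and 13.4 CPM per kb) followed, and their libraries overlapped in WT soft and in Cav1KO stiff, so they were not ordered there. Itga3 came after them in each group, at 6.94 to 11.6 CPM per kb. Itga6 was above Itgb3 on the stiff substrate (1.33 against 0.906 CPM per kb in WT, 0.826 against 0.260 in Cav1KO) and Itgb3 above Itga6 in WT soft (1.74 against 0.766), with overlap in Cav1KO soft. Itga1 was last, at 0.0691 to 0.219 CPM per kb. The length of the longest coding transcript was also used in place of the exon union. By the means, Itgav then moved above Itgb5 and Itga5 in WT stiff and above Itga5 in WT soft, and Itga6 above Itgb3 in Cav1KO soft. The libraries of Itgav and Itgb5 overlapped in WT stiff, as did those of Itga6 and Itgb3 in Cav1KO soft, so these pairs were not ordered.

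The ratio of the beta to the alpha subunit mRNAs within a library does not depend on the scaling between libraries. Itgb1 per Itga5, the subunits of the classical fibronectin receptor, was 2.15 to 2.59 in the 4 WT libraries and 7.11 to 8.59 in the 4 Cav1KO libraries, as a ratio of CPM per kb. Itgb1 per Itgav was 2.53 to 2.66 in WT and 7.38 to 11.1 in Cav1KO. The genotypes did not overlap in either ratio. This separation follows from the values above, with Itgb1 higher and Itga5 and Itgav lower in every Cav1KO library than in any WT library. Itgb5 per Itgav was lower on stiff than on soft within each genotype, at 1.31 and 1.37 on stiff and 2.35 and 2.03 on soft gels in WT cells, and 2.04 and 1.93 on stiff and 3.14 and 3.61 on soft gels in Cav1KO cells. Itgb5 per Itgb1 was 0.501 and 0.543 on stiff and 0.913 and 0.763 on soft gels in WT cells, and 0.234 and 0.262 on stiff and 0.299 and 0.326 on soft gels in Cav1KO cells. Summed over Itga1, Itga3, Itga5, Itga6 and Itgav, the alpha subunits stood at 59.4 to 82.3 CPM per kb in WT and 35.1 to 41.9 in Cav1KO libraries, while the beta subunits (Itgb1, Itgb3 and Itgb5) stood at 111.5 to 129.0 in WT and 140.5 to 191.3 in Cav1KO libraries. Itgb1 took 51.5% to 66.1% of the beta sum in WT and 75.2% to 80.9% in Cav1KO libraries. The absolute ratios depend on the gene lengths used, and the ratios between groups do not.

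**Figure D3:**
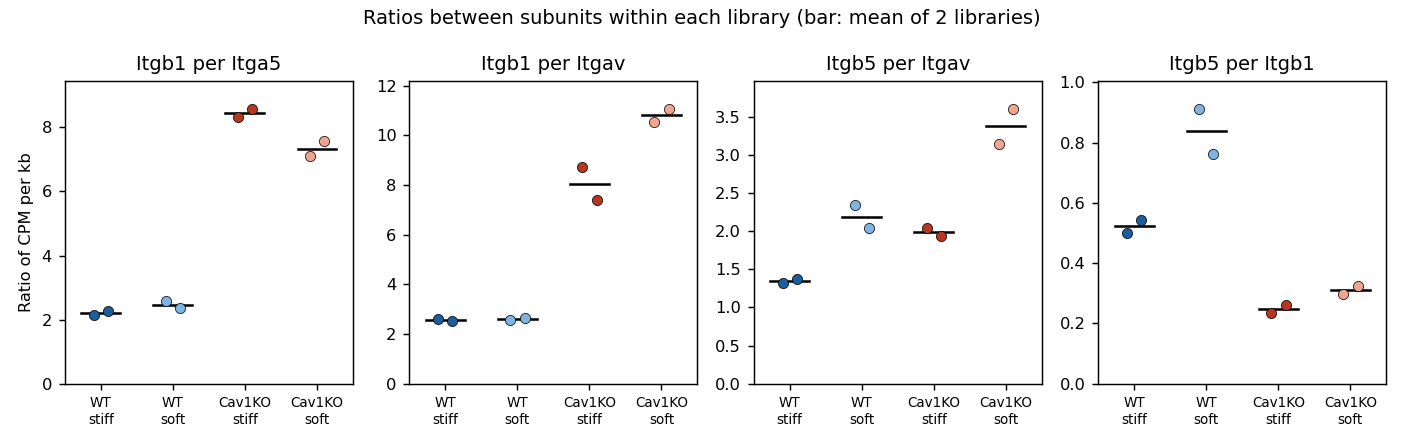
Ratios of CPM per kb between subunits within each library (y axes, each starting at 0) by group (x axis), with a point per library and bars at the group means. Itgb1 per Itga5 was 2.15 to 2.59 in WT and 7.11 to 8.59 in Cav1KO libraries, and Itgb5 per Itgav was higher on soft than on stiff in each genotype.

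Of 16 further integrin subunits, 8 were listed (Itga7, Itga9, Itga10, Itga11, Itga2b, Itgb2, Itgb7 and Itgb8). With stiffness, 6 of them were lower on stiff and none higher in WT cells (median -0.79), and 5 were lower and 1 higher in Cav1KO cells (median -0.60), beside medians of -0.02 over all genes in both. Of all genes, the WT shares for stiffness were 26.3% lower and 22.1% higher, and the Cav1KO shares 28.2% lower and 27.9% higher. By genotype, 2 were higher and 3 lower in Cav1KO on stiff, where 25.0% of all genes were higher and 26.6% lower. On soft, 1 was higher and 3 lower, where 24.1% of all genes were higher and 29.9% lower. The genotype medians were -0.23 on stiff and -0.11 on soft, beside -0.03 over all genes on each. Itgb2, which is also a leukocyte marker, lay between 0.171 and 2.25 CPM in all libraries. It was the gene called higher on soft (0.45, SE 0.16, limma adjusted p = 0.0410), and that call held in only 8 of 17 alternatives: it was lost with edgeR (adjusted p = 0.0885), DESeq2 (adjusted p = 0.349), a pseudocount of 0.5 (limma adjusted p = 0.0519) and a replicate block (limma adjusted p = 0.0546), and without WT stiff 1 (limma adjusted p = 0.0544), WT stiff 2 (0.0544), WT soft 2 (0.179), Cav1KO soft 1 (0.174) or Cav1KO soft 2 (0.0920). The lower call of Itga7 on stiff (-0.71, SE 0.19, limma adjusted p = 0.0142) was lost with DESeq2 (adjusted p = 0.0802) and without WT stiff 1 (limma adjusted p = 0.102) or Cav1KO stiff 1 (0.0632). Among the calls lower on stiff, DESeq2 lost Itgb7 in WT cells (adjusted p = 0.0575), Itgb8 in WT (0.0975) and Cav1KO cells (0.102) and Itgb2 in Cav1KO cells (0.2003). Leaving out 1 library lost Itgb7 in WT cells (WT stiff 1, WT stiff 2 or WT soft 2, limma adjusted p = 0.0755, 0.0537 and 0.0969), Itgb8 in WT (WT stiff 1, 0.0512) and Cav1KO cells (Cav1KO stiff 2 or Cav1KO soft 1, 0.0692 and 0.0943) and Itgb2 in Cav1KO cells (Cav1KO stiff 1 or Cav1KO soft 1, 0.0657 and 0.0768). Itga11, a collagen receptor subunit, measured 9.29 and 6.61 CPM on stiff and 17.5 and 18.5 on soft gels in WT cells, and 3.53 and 1.86 on stiff and 16.9 and 15.9 on soft gels in Cav1KO cells. It was the only further alpha subunit over 15 CPM in any library, and both stiff groups were below both soft groups. Its stiffness effect was -1.10 in WT (SE 0.22, limma adjusted p = 0.00406) and -2.27 in Cav1KO cells (SE 0.22, limma adjusted p = 7.51e-05, and -1.48 with a pseudocount of 5), and the difference between them was 1.17 (SE 0.32, limma adjusted p = 0.0507), which passed with edgeR (1.44, adjusted p = 0.0487), with DESeq2 (1.45), with median centring (1.13), with a replicate block (1.17) and without WT stiff 2 (1.39) or Cav1KO stiff 1 (1.502). Itga2b, known as the platelet fibrinogen receptor subunit, had stiffness effects of -1.38 in WT and -1.65 in Cav1KO cells (SE 0.16 each), which became -0.88 and -0.996 with a pseudocount of 5. Itga10, another collagen receptor subunit, had effects of -1.29 and -1.34 (SE 0.23 each), at 0.412 to 0.803 CPM on stiff and 2.20 to 4.11 CPM on soft. These Itga10 effects ranged from -0.50 to -2.46 over the pseudocounts and count models. Of the Itga10 windows of 60 nt, 29.9% also occur in other genes, most often Gm42957, so its values are uncertain.

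Itga9, whose product pairs with that of Itgb1 and binds tenascin-C and a splice form of fibronectin, was at 1.37 to 2.36 CPM (24 to 39 reads) in the 4 WT libraries and at 0 reads in the 4 Cav1KO libraries. Set against a floor of 3 reads in a library, it was at least 8.85-fold lower in Cav1KO cells on the stiff and at least 13.3-fold lower on the soft substrate, limits that cover counting error only. Itgb7, known as the beta subunit of lymphocyte homing receptors, moved in opposite directions in the genotypes. It measured 23.7 and 24.2 CPM on stiff and 28.8 and 32.4 on soft gels in WT cells, and 37.8 and 36.2 on stiff and 22.2 and 21.5 on soft gels in Cav1KO cells. Its stiffness effect was -0.34 in WT (SE 0.09, limma adjusted p = 0.0172) and 0.73 in Cav1KO cells (SE 0.09, limma adjusted p = 0.000299), and the difference between the effects was -1.08 (SE 0.13, limma adjusted p = 0.00564). The WT effect was lost with DESeq2 (-0.35) and without WT stiff 1 (-0.33), WT stiff 2 (-0.36) or WT soft 2 (-0.26). The difference between the effects passed in all 17 alternatives run.

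**Figure D4:**
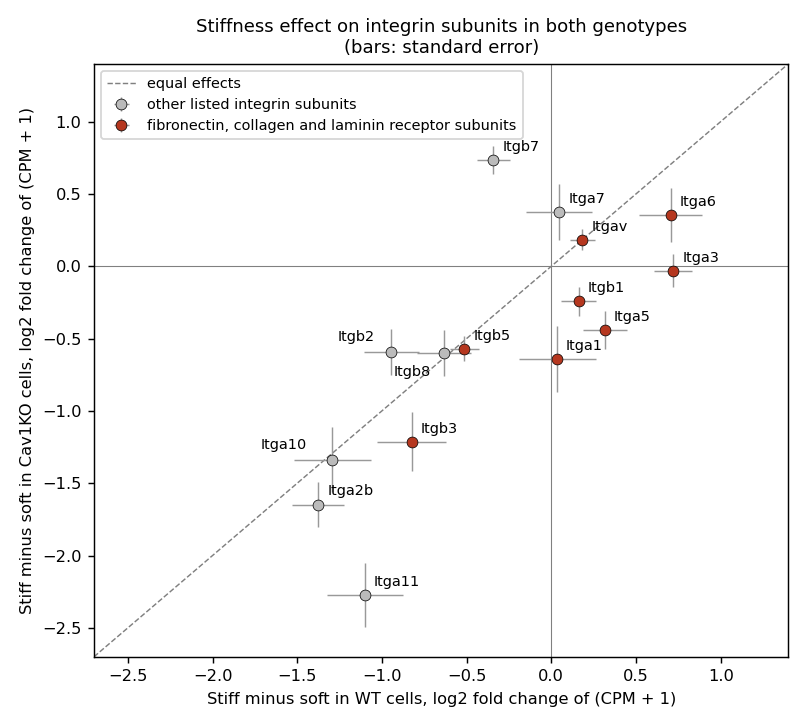
Stiffness effect (stiff minus soft, log2 fold change of (CPM + 1)) in WT cells (x axis) against Cav1KO cells (y axis) for the 8 described subunits (red) and 7 further subunits (grey), with standard errors and a dashed line of equal effects. Itga9, at 0 in Cav1KO cells, is left out. Itgb3 and Itgb5 lie in the lower left with most of the grey points. Most points lie on or below the line, Itga5 and Itga3 among them and Itga11 the farthest. Itgb7 lies farthest above it.

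Genes that act on integrins were taken from lists. Over all genes tested, the median log2 fold change was -0.02 for stiffness in each genotype and -0.03 for genotype on each substrate. As a background for both lists below, the WT stiffness test called 22.1% of all genes higher on stiff gels and 26.3% lower. The Cav1KO stiffness test called 27.9% higher and 28.2% lower. The genotype test called 25.0% higher and 26.6% lower on stiff gels, and 24.1% higher and 29.9% lower on soft gels. Of 6 activators tested, 2 were higher and none lower on stiff in WT cells (median 0.27), and 2 were higher and 2 lower in Cav1KO cells (median -0.08). By genotype, 1 was higher and 3 lower in Cav1KO than in WT cells on the stiff substrate (median -0.58). On the soft substrate 2 were higher and 3 lower (median 0.10). In the difference between the stiffness effects 2 were higher, where 4.47% of all genes were. These were Tln1 (1.89, SE 0.44, limma adjusted p = 0.0373) and Tln2 (2.04, SE 0.42, limma adjusted p = 0.0294), which encode talins. Tln1 was at 145.1 ± 46.1 CPM on stiff and 68.4 ± 15.5 on soft gels in WT cells. In Cav1KO cells it was at 63.6 ± 29.1 and 108.1 ± 2.34 CPM. How far these calls depend on single libraries is not reported here. Fermt2, which encodes kindlin-2, fell from 84.6 ± 6.02 CPM (SD, n = 2) in WT stiff to 35.8 ± 4.01 in Cav1KO stiff (log2 fold change -1.22, SE 0.12, limma adjusted p = 6.68e-05), and from 66.4 ± 10.4 to 40.1 ± 0.0111 on soft (-0.71, limma adjusted p = 0.00139). Apbb1ip, which encodes the RIAM adaptor that brings talin to the membrane, rose from 7.75 ± 0.241 to 28.3 ± 6.28 CPM on stiff (1.73, SE 0.15) and from 6.94 ± 0.0115 to 27.8 ± 0.58 CPM on soft (1.86, SE 0.15). Of 8 genes listed as inactivators, among them the tensin genes Tns1 and Tns3, 3 were higher and 1 lower on stiff in WT cells (median 0.06). In Cav1KO cells 1 was higher and 3 lower (median -0.22). By genotype 1 was higher and 5 lower in Cav1KO on stiff (median -0.54), and 1 higher and 2 lower on soft (median 0.02). Whether the product of each gene inactivates integrins in these cells was not tested. Tns3, which encodes tensin-3, was at 113.6 ± 6.33 CPM on stiff and 82.3 ± 1.31 on soft gels in WT cells, and 58.5 ± 8.36 on stiff and 98.4 ± 1.22 on soft gels in Cav1KO cells, and its stiffness effects differed between the genotypes by 1.21 (SE 0.14, limma adjusted p = 0.00450), a call that held in every alternative run.

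Of 18 adaptors and kinases, 8 were higher and 3 lower on stiff in WT cells (median 0.20, all genes 22.1% and 26.3%). In Cav1KO cells 1 was higher and 4 lower (median -0.13, all genes 27.9% and 28.2%). The difference between the effects was higher for 4 of them, as for 4.47% of all genes. By genotype, 2 were higher and 9 lower in Cav1KO on stiff (median -0.29, all genes 25.0% and 26.6%). On soft 4 were higher and 6 lower (median 0.04, all genes 24.1% and 29.9%). The parvins, which link integrin-linked kinase to actin, moved apart: Parvb fell from 65.7 ± 4.77 to 18.3 ± 0.0822 CPM on stiff (-1.79, SE 0.12, limma adjusted p = 7.30e-06) and Parva rose from 99 ± 4.51 to 147.3 ± 22.1 CPM (0.56, SE 0.10, limma adjusted p = 0.00192). Parvb was also higher on stiff in WT cells (0.90, SE 0.12, limma adjusted p = 0.000544). Of 18 genes of integrin traffic, 3 were higher and 5 lower on stiff in WT cells (median -0.19, all genes 22.1% and 26.3%). In Cav1KO cells 2 were higher and 7 lower (median -0.15, all genes 27.9% and 28.2%). By genotype 3 were higher and 7 lower in Cav1KO on stiff (median -0.04, all genes 25.0% and 26.6%). On soft 5 were higher and 8 lower (median -0.23, all genes 24.1% and 29.9%). Dab2, an endocytic adaptor for Itgb1-containing integrins, rose from 26.8 ± 0.473 to 124.8 ± 4.96 CPM on stiff (2.18, SE 0.08, limma adjusted p = 1.26e-07) and from 35.2 ± 2.03 to 200.5 ± 0.933 CPM on soft (2.48, SE 0.08, limma adjusted p = 6.08e-08). Arf6, a GTPase of integrin recycling, fell on soft from 476.5 ± 29.4 to 218.3 ± 3.59 CPM (-1.12, SE 0.07, limma adjusted p = 5.58e-06).

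The ligands were also listed. Of all genes tested, 28.2% were lower and 27.9% higher on stiff in Cav1KO cells, and 26.3% and 22.1% in WT cells. In Cav1KO against WT cells, 25.0% were higher and 26.6% lower on stiff, and 24.1% and 29.9% on soft. On stiff against soft in Cav1KO cells, all 8 fibronectin, vitronectin and VCAM1 receptor ligands tested (median -1.24), all 9 collagen chains (median -1.62) and 7 of 9 laminin or nidogen genes (median -1.15) were lower, and none was higher. In WT cells 4 were lower and 1 higher of the first list (median -0.55), 5 of the collagen chains were lower and none higher (median -0.56), and 4 of the laminin list were lower and 1 higher (median -0.39). In the difference between the effects, 6 of 8, 5 of 9 and 5 of 9 were higher and 1 of the first list was lower. Of all genes, 4.47% were higher and 6.0% lower in this difference. By genotype on stiff, 2 were higher and 4 lower of the first list, none higher and 8 lower of the collagens, and 1 higher and 2 lower of the laminins, while on soft 6 were higher and 1 lower, 1 higher and 2 lower, and 6 higher and 1 lower, respectively. Vcam1, which encodes the counter-receptor of the Itga4 product, rose in Cav1KO from 27.4 ± 3.17 to 157.1 ± 12.9 CPM on stiff (2.48, SE 0.16, limma adjusted p = 5.77e-06) and from 49.8 ± 13.7 to 305.7 ± 2.38 CPM on soft (2.62, SE 0.16, limma adjusted p = 3.99e-06). Col4a2, a chain of basement membrane collagen, fell from 28.3 ± 5.78 to 0.0862 ± 0.0445 CPM on stiff and from 28.1 ± 3.79 to 0.907 ± 0.0261 CPM on soft (-3.92, SE 0.17, limma adjusted p = 4.34e-07, and -2.48 with a pseudocount of 5). Fn1, the gene of the protein that coated the gels, was at 1420.0 ± 146.4 CPM on stiff and 1739 ± 222.1 on soft gels in WT cells, and 800.4 ± 247.4 on stiff and 3030.4 ± 83.3 on soft gels in Cav1KO cells. Its stiffness effects differed by 1.66 (SE 0.27, limma adjusted p = 0.0136), which was not past the threshold without WT stiff 1 (1.56), WT soft 1 (1.53), Cav1KO soft 1 (1.64) or Cav1KO soft 2 (1.69). The fibroblast marker sum, which holds 3 of the collagen chains, moved with these lists as given above.

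The genes most like each subunit were ranked by Pearson's r of log2(CPM + 1) over the 8 libraries among genes with a mean of at least 5 CPM. The libraries share genotype and substrate, so that many genes have a high r. The nearest to Itga5 were Sept9 (r = 0.997), Pip4k2a (0.995) and Acsl4 (0.992), with 93 genes over 0.95. Itgav had 403 such genes, led by Ttc39b, Rgs16 and Hmga2 (0.995 to 0.996). For Itgb3 they were Zfyve27, Rsu1 and Lrrc32 (0.983 to 0.987), for Itgb5 Cuedc1, Herc6 and Sesn1 (0.993 to 0.995), and for Itgb1 Zbtb12, Brf1 and Pfkfb3 (0.994 each). For Itga1 they were Ttc3, Plxnb2 and Dnajc3 (0.984 to 0.987). Itga3 was closest to Cep63 (0.999), with 16 genes over 0.95. Itga6 had the fewest, with 2 genes over 0.95 (Usp36 and Spop).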

How the data were processed

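Poly(A) RNA of 8 libraries was sequenced as single reads. The authors deposited 1 table of TMM-normalized CPM per gene and library, a signal per gene that is the read count divided by the library's effective size. The submitters' processing notes name CASAVA 1.8.2, cutadapt, RSEM 1.2.3 and GRCm38, and the use of strand in counting is not given in the sources used here. Each value was a whole multiple (100% of values, tolerance 0.02) of the value of 1 read, so the reads were recovered, 17089836 to 19944952 per library. Limits from 3 reads cover counting error only.

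The 12494 genes that reached 1 CPM in 2 or more libraries were tested on log2(CPM + 1) with limma 3.58.1 (mean-variance trend, R 4.3.3), with 4 groups in 1 fit without a block, 4 residual degrees of freedom, two-sided tests, Benjamini-Hochberg adjustment and a threshold of 0.05. Alternatives used other pseudocounts (0.5 and 5), no filter, no trend, median centring, edgeR 4.0.16 and DESeq2 1.42.0 on the recovered reads, a replicate block, a crossed block added after the data were seen, and each library left out in turn. The pipeline was tested on simulated data. Coordinates, exon lengths and shared 60 nt windows came from GENCODE M21, which matched 12451 of 12528 identifiers, and promoters from RefSeq (GRCm38.p6). Named genes were the 10 subunits and Cav1, the listed further subunits, the 2 largest rises and falls past the threshold with a mean of at least 5 CPM in each pathway list and comparison, and the 3 genes most like each subunit, not all of which are reported here. Of the pathway genes so named, some were chosen for the text after their values were seen. The subunits and lists were chosen with earlier results of these data known.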

Additional observations from a re-analysis of the deposited data

Results flagged for a closer look

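The test of the difference between the stiffness effects was past the threshold for 3 integrin subunits. These were 2 of the 8 described and 1 of the 8 further listed subunits, where 10.5% of all genes passed. The Itga5 and Itga3 calls each held in 10 of 17 alternatives, and the Itgb7 call in all 17. The difference (WT minus Cav1KO, log2 scale) was 0.76 for Itga5 (SE 0.18, limma adjusted p = 0.0414), 0.75 for Itga3 (SE 0.16, limma adjusted p = 0.0310) and -1.08 for Itgb7 (SE 0.13, limma adjusted p = 0.00564).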

How the results depend on the processing

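The number of the 8 subunits called was within 1.5 times the number reported under every alternative for both genotype comparisons. When a library was left out, the number called ranged from 2 to 5 for stiffness in WT cells (2 without WT stiff 1 or WT soft 1), from 2 to 5 for stiffness in Cav1KO cells (2 without Cav1KO stiff 2 or Cav1KO soft 1) and from 0 to 3 for the difference between the stiffness effects (0 without WT stiff 1, WT soft 1, WT soft 2, Cav1KO stiff 2, Cav1KO soft 1 or Cav1KO soft 2). The difference was also called for 0 subunits, in place of 2, without the mean-variance trend. Fewer libraries leave fewer degrees of freedom. Signs turned only for differences that passed no test: under median centring the Itga3 stiffness effect in Cav1KO cells was 0.056 and the Itgav difference between effects -0.043. With a library left out, the Itga1 effect in WT cells ranged from -0.26 to 0.32, Itga3 in Cav1KO cells from -0.18 to 0.12, the Itgav difference from -0.061 to 0.063, the Itgb5 difference from -0.035 to 0.15 and Itga3 by genotype on soft from -0.012 to 0.085. The cause of these turns was not tested. Median centring shifted the median of all genes by 0.09 at most. The replicate numbers are tied to no day or batch, and deviations of same-numbered libraries correlated from -0.37 to 0.42. With the number as a replicate block 4, 4, 2, 7 and 6 subunits were called in the 5 comparisons, as without it, and no call on the 8 subunits changed. With the numbers crossed, 6, 6, 3, 7 and 6 were called. Levels of Itga1 and Itgb3 rest on 16 to 182 reads per library, so that small differences in them could not be seen at this depth.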
